A study of Mus musculus with 25 samples.

Results

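The 9 genes described here encode parts of the angiotensin system: the precursor Agt, the (pro)renin receptor Atp6ap2, the peptidases Ace and Mme, the receptors Agtr1a, Agtr2, Mas1 and Lnpep, and the receptor-binding protein Agtrap. They were chosen by name, and each symbol mapped to 1 of the 56941 gene rows of the count table. RNA was measured in 25 mouse hearts by sequencing of total RNA after depletion of ribosomal RNA. The hearts were labelled wild type (WT) or MCT1KO, that is, lacking MCT1, the lactate and pyruvate carrier encoded by Slc16a1. Per the series description, both genotypes were given Ang/PE, neurohormonal agonists that cause enlargement of the heart muscle, and the question was how lactate is handled during that growth. The 6 groups were 4 WT and 3 MCT1KO hearts with no pump, 6 WT and 4 MCT1KO hearts with saline, and 3 WT and 5 MCT1KO hearts with Ang/PE. Age, sex, strain, dose, infusion time, the cells in which the gene was deleted and what the letters of "Ang/PE" stand for are not given in the sources used here.

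Angiotensinogen is cut by renin to angiotensin I, which angiotensin-converting enzyme turns into angiotensin II. Angiotensin II acts on the AT1 receptor, which drives vasoconstriction, aldosterone release and cardiac growth, while the AT2 receptor and the Mas receptor are mostly described as opposing it. Most circulating angiotensinogen comes from the liver and most renin from the kidney, so the heart is usually seen as a target tissue with a small local system of its own.

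Total counts ran from 12216704 to 24880683 per heart; the hearts without a pump all had more (at least 18382102) than those with Ang/PE (at most 16610416). All 5 ventricular cardiomyocyte markers were present in every heart. Slc16a1 was at 132 to 223 CPM (counts scaled to a common library total) in hearts labelled MCT1KO and at 150 to 249 CPM in WT hearts, with log2 differences between genotypes of -0.33 to -0.02 (smallest adjusted p = 0.219, edgeR), so "MCT1KO" is used below only as the label of a library. Xist, the transcript of the inactive X chromosome, was above 100 CPM in 13 hearts. Among WT hearts these were 2 of the 4 without a pump, 1 of the 6 saline hearts and all 3 Ang/PE hearts, and among MCT1KO hearts 0 of 3, 3 of 4 and 4 of 5 in the same order. Markers of atrial muscle, which summed to at most 5.73 CPM in the 15 hearts without saline, were above that level in 8 of the 10 saline hearts, and MCT1KO saline replicate 4 stood farthest apart, with 3679 CPM of atrial and 1447 CPM of fat markers and the lowest sum of ventricular cardiomyocyte markers (27720 CPM). Most results that rest on that heart are given with and without it.

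Ace and Mme are the members with more than 1 listed transcription start, and a count per gene adds the transcripts of all of them, which is why their starts are shown. Ace has 2, the second inside the gene at the place of the start used for the short testis enzyme, and Mme has 3 that lie close together. The 100 bases before each start, from RefSeq on GRCm38.p6, are shown 5′ to 3′ on the strand of the gene, with capitals for matches to TATAAA or GGGCGG on either strand. The windows are chr11:105967848-105967947 and chr11:105975089-105975188 for Ace, and chr3:63295111-63295210, chr3:63295772-63295871 and chr3:63295995-63296094 for Mme, all on the plus strand.
Ace start 1: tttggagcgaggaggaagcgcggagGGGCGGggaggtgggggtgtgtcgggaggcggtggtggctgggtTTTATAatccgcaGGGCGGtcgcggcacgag
Ace start 2: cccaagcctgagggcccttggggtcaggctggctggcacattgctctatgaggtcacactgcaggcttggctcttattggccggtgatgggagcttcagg
Mme start 1: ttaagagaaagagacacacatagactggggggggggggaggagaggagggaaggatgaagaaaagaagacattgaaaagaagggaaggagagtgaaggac
Mme start 2: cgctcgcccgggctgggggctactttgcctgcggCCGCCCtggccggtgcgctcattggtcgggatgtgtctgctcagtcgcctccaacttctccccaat
Mme start 3: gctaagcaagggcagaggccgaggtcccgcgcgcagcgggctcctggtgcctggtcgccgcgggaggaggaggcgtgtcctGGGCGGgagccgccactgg
The window of Ace start 1 holds 1 TATAAA match and 2 GGGCGG matches, and that of start 2 holds neither. Mme starts 2 and 3 hold 1 GGGCGG match each and start 1 holds none. Over the same windows of 32851 listed starts, TATAAA is found in 5.56% and GGGCGG in 24.7%. Agt, the precursor, also has a TATAAA match, in this window on the minus strand of chromosome 8 (chr8:124569707-124569806), printed because it is the other member with that motif.
Agt start 1: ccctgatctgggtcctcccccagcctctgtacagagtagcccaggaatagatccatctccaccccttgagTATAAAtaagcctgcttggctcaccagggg
A start was listed for 8 of the 9 members. These matches describe the sequence only, and no value in these data measures which start was used.

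Between genes, levels were compared as CPM per kilobase of exon, which puts genes of different length on 1 scale. Lnpep was highest, with a median of 27.7 CPM per kb over the 25 hearts, followed by Ace at 15.5, Agtr1a at 11.2, Agtrap at 9.54 and Atp6ap2 at 6.43. Agt at 1.26, Mme at 1.00 and Mas1 at 0.379 formed the low end, and Agtr2 had a median of 0. The transcripts of the converting enzyme and of the AT1 receptor were thus above that of the precursor, with no overlap of Ace or Agtr1a with Agt in any heart. The order of neighbours is not fixed heart by heart: Agtr1a (5.21 to 16.7 CPM per kb) overlapped Ace (10.6 to 34.0) and Agtrap (7.66 to 11.4), and Mme (0.115 to 4.08) overlapped both Agt (0.665 to 3.00) and Mas1 (0.136 to 0.575).

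**Figure D1:**
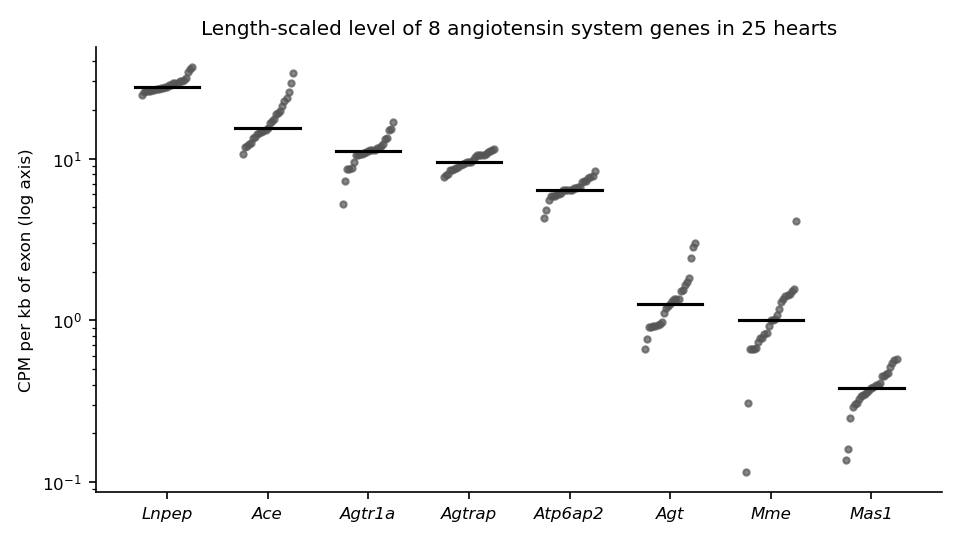
Length-scaled level of the 8 tested members, 1 point per heart in increasing order and a line at the median of 25 hearts, in CPM per kb of exon on a log axis. Lnpep, with a median of 27.7, is highest, and the spread between hearts is widest for Mme, from 0.115 to 4.08.

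None of the 8 members that passed the filter on low counts was called in any of 12 comparisons by edgeR's quasi-likelihood test at an adjusted p below 0.05. The background of such calls differed widely between comparisons: 4.46% of 17682 tested genes for Ang/PE against saline in MCT1KO and 0.0170% in WT, 6.61% for saline against no pump in WT and 0.00566% in MCT1KO, and 0.503% for Ang/PE against no pump in MCT1KO and 0% in WT. It was 0% for each of the 3 comparisons of genotype and for the interaction of genotype with Ang/PE against saline, 0.00566% for the interaction of genotype with saline against no pump, and 8.34% for any difference among the 6 groups. DESeq2 called 1 member, Mme, for Ang/PE against saline in MCT1KO and 0 in the other 11. At an unadjusted p below 0.05, 12 of the 88 pairs of a member and a contrast passed in edgeR. For Ang/PE against saline this was 1 member in WT and 2 in MCT1KO, with 19.1% and 20.4% of all tested genes. For saline against no pump it was 1 and 1, with 24.3% and 12.1%. For Ang/PE against no pump it was 3 in MCT1KO, with 13.1%, and 0 in WT, with 9.02%. For MCT1KO against WT it was 1 without a pump, with 12.2%, 1 with Ang/PE, with 6.92%, and 0 with saline, and for the interactions with Ang/PE and with saline it was 1 each, with 13.5% and 17.2%. For any difference among the groups it was 2, Mme and Atp6ap2, with 30.8%. Summed over contrasts, the members' share was within the range of these backgrounds. Member by member they are given below, from receptor to enzyme. In whole hearts, fewer cells of a type and less RNA per cell cannot be told apart.

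**Figure D2:**
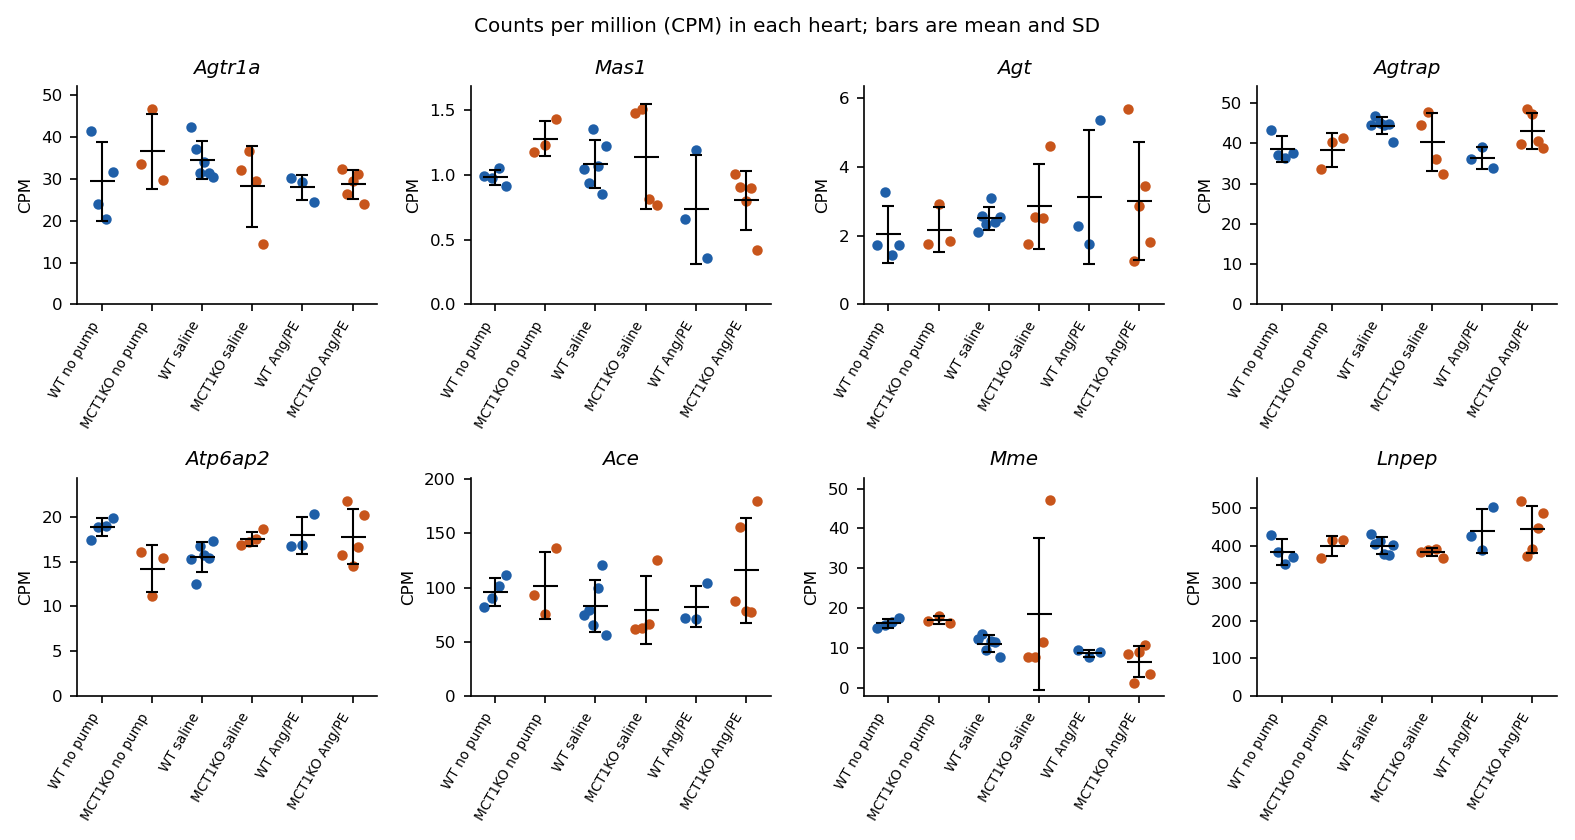
CPM of the 8 tested members in each heart, by group, with WT in blue and MCT1KO in orange; black marks are the mean and its SD (n of 3 to 6), and each panel has its own linear axis. The single MCT1KO saline heart at 47.1 CPM of Mme and the pair of MCT1KO Ang/PE hearts above 150 CPM of Ace are visible.

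Agtr1a, on chromosome 13, encodes the main AT1 receptor of mouse heart. In WT hearts without a pump it was at 41.6, 24.02, 20.4 and 31.6 CPM, and in MCT1KO hearts without a pump at 33.5, 46.6 and 29.6. With saline the 6 WT hearts ran from 30.5 to 42.3 CPM with a median of 32.8, and the 4 MCT1KO hearts were at 32.2, 36.8, 29.5 and 14.5. With Ang/PE the WT hearts were at 30.2, 29.2 and 24.5 CPM, and the MCT1KO hearts at 32.5, 26.5, 29.5, 31.1 and 24.01. The lowest value of the series was that of MCT1KO saline replicate 4, and the Ang/PE hearts fell inside the range of the hearts without a pump. In WT the 3 Ang/PE hearts all lay below the 6 saline hearts, as did 7.16% of tested genes, and the log2 fold change of -0.30 (95% interval -0.77 to 0.17) did not pass the test (adjusted p = 0.483, edgeR). In MCT1KO the 95% interval of the same comparison was -0.42 to 0.46, with MCT1KO saline replicate 4 included. That heart was at 14.5 CPM and the others of its group at 29.5 to 36.8. The step without it is not given here, so no difference between the genotypes is read from these intervals. The near-identical copy of Agtr1a, Agtr1b, had 2 counts in all, with 0 in 23 hearts, and reads shared between the copies could have been assigned to either or dropped.

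Agtr2, the X-linked AT2 receptor, had 9 counts over all 25 hearts. They lay in 5 hearts, 4 of them in WT no-pump replicate 3, and 20 hearts had 0. A count of 3, the limit that a count of 0 allows, corresponds to 0.134 to 0.274 CPM in these libraries, so Agtr2 was not detectable above that level in 24 hearts, and no test was made. Mas1, the receptor of the heptapeptide angiotensin that Mme helps to form, had 5 to 32 counts per heart.

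Mas1 averaged 0.982 ± 0.0566 CPM (SD, n = 4) in WT and 1.28 ± 0.133 (n = 3) in MCT1KO hearts without a pump. It averaged 1.08 ± 0.184 (n = 6) and 1.14 ± 0.406 (n = 4) with saline, and 0.734 ± 0.421 (n = 3) and 0.805 ± 0.228 (n = 5) with Ang/PE. In MCT1KO all 5 Ang/PE hearts lay below all 3 hearts without a pump, with a log2 fold change of -0.69 (SE 0.305, adjusted p = 0.322, edgeR), and 3.96% of tested genes separated in that direction. The estimate for Ang/PE was below 0 in all 4 of its comparisons, at -0.56 and -0.52 against saline and -0.42 and -0.69 against no pump in WT and MCT1KO; those sharing a group of Ang/PE hearts are not independent, and none passed the adjusted threshold. The WT values moved with single Ang/PE hearts. Without replicate 3 they were -0.235 against saline and -0.10 against no pump, and without replicate 2 -1.066 and -0.925. The WT value against saline was -0.168 with atrial and fat marker scores as covariates and -0.917 with Xist as a covariate. The MCT1KO value against saline was -0.34 without MCT1KO Ang/PE replicate 5 and -0.68 without MCT1KO saline replicate 4. It was -0.041 without the saline hearts of raised atrial score, which leaves 1 heart in each saline group.

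Lnpep, on chromosome 17, encodes the membrane aminopeptidase also known as insulin-regulated aminopeptidase, which binds angiotensin IV and resides in the vesicles that carry the glucose transporter of muscle and fat. It was the most evenly expressed member, with a within-group SD of 0.134 on the log2 scale. WT hearts were at 429.6, 383, 351 and 369.5 CPM without a pump, at 374 to 432 with saline (median 403), and at 426, 388 and 504 with Ang/PE. MCT1KO hearts were at 367, 415 and 414 CPM without a pump, at 382, 387, 391 and 368 with saline, and at 519, 372, 391, 448 and 488 with Ang/PE. The 4 highest hearts of the series all had Ang/PE, but each Ang/PE group overlapped its saline group. The log2 fold change of Ang/PE against saline was 0.22 (SE 0.1, adjusted p = 0.226, edgeR) in MCT1KO, and 0.14 (adjusted p = 0.503) without MCT1KO Ang/PE replicate 1. In WT the 95% interval was -0.08 to 0.35, and without WT Ang/PE replicate 3 the value was 0.04.

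Agtrap, on chromosome 4, encodes a membrane protein that binds the tail of the AT1 receptor and promotes its internalisation. WT hearts were at 43.4, 37.2, 36.4 and 37.6 CPM without a pump, at 40.4 to 46.7 with saline (median 44.8), and at 36.2, 39.1 and 33.9 with Ang/PE. MCT1KO hearts were at 33.6, 40.4 and 41.3 CPM without a pump, at 44.7, 47.8, 36.1 and 32.4 with saline, and at 39.8, 48.5, 47.4, 40.6 and 38.9 with Ang/PE. In WT the Ang/PE hearts all lay below the saline hearts, as they did for 7.16% of tested genes. In MCT1KO the groups overlapped, and 2.36% of tested genes separated in that direction. The log2 fold change of Ang/PE against saline was -0.29 in WT (SE 0.108, 95% interval -0.51 to -0.06, adjusted p = 0.16, edgeR) and had a 95% interval of -0.11 to 0.30 in MCT1KO. The difference between the genotypes in this step was 0.38 (SE 0.147, adjusted p = 0.309). It was 0.28 without MCT1KO saline replicate 4, and 0.22 (adjusted p = 0.972) with atrial and fat marker scores as covariates. With Ang/PE Agtrap was 0.24 higher in MCT1KO than in WT (SE 0.111, adjusted p = 0.711). A fit of only the WT Ang/PE and saline hearts brought the adjusted p of the WT step to 0.0456 in a fit that called 5.69% of its genes, and over all 13 alternative settings that p ran from 0.0456 to 0.928.

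Agt, on chromosome 8, encodes the precursor and gave 18 to 78 counts per heart. It was at 1.72, 3.26, 1.45 and 1.72 CPM in WT and at 1.77, 2.93 and 1.83 in MCT1KO hearts without a pump. With saline it ran from 2.09 to 3.10 CPM in WT (median 2.47) and was at 1.74, 2.55, 2.50 and 4.60 in MCT1KO. With Ang/PE it was at 2.27, 1.75 and 5.36 CPM in WT and at 5.67, 1.26, 2.87, 3.44 and 1.80 in MCT1KO. The highest and the lowest hearts of the series both had Ang/PE, and the spread within groups was larger than in 88.0% of tested genes. For Ang/PE against no pump the log2 fold change was 0.61 (95% interval -0.25 to 1.47) in WT and 0.45 (-0.39 to 1.29) in MCT1KO. Each rested on 1 heart: the WT value was -0.009 without WT Ang/PE replicate 3, and the MCT1KO value was 0.10 without MCT1KO Ang/PE replicate 1. Both intervals reach from below 0 to above 1, the widest of any member in these comparisons after Mme.

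Atp6ap2, on the X chromosome, encodes the (pro)renin receptor, which is also an accessory subunit of the proton pump that acidifies lysosomes. Without a pump it was at 17.5, 18.9, 19.03 and 19.9 CPM in WT and at 16.05, 11.2 and 15.4 in MCT1KO, 2 ranges that did not overlap; 6.47% of tested genes separated in that direction and 5.07%, Mas1 among them, in the other. With saline it ran from 12.5 to 17.3 CPM in WT (median 15.6) and was at 16.9, 17.1, 17.5 and 18.7 in MCT1KO. With Ang/PE it was at 16.7, 16.8 and 20.3 CPM in WT and at 15.7, 21.8, 14.5, 16.7 and 20.2 in MCT1KO. With saline the WT hearts all lay below, and the MCT1KO hearts all above, those of their genotype without a pump, as did 6.22% and 4.67% of tested genes. Saline against no pump gave a log2 fold change of -0.28 in WT (SE 0.112, adjusted p = 0.129, edgeR) and 0.30 in MCT1KO (SE 0.135, adjusted p = 0.366). The MCT1KO value leaned on no-pump replicate 2, the heart at 11.2 CPM, without which it was 0.16 (adjusted p = 0.872).

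The interaction of genotype with saline against no pump was 0.58 for Atp6ap2 (SE 0.176, 95% interval 0.21 to 0.94), with an adjusted p of 0.136 (edgeR), and missed the threshold. The genotypes differed by -0.40 without a pump (SE 0.134, adjusted p = 0.268), and Ang/PE against no pump in MCT1KO gave 0.32 (SE 0.13, adjusted p = 0.268). Without MCT1KO no-pump replicate 2 these were -0.26 (adjusted p = 0.83) and 0.17 (adjusted p = 0.845), and the interaction was 0.44. Over the 13 alternative settings the interaction ran from 0.387 to 0.665. Hearts with Xist were unevenly spread over these groups, as given above. With the log2 CPM of Xist as a covariate the interaction was 0.61 (SE 0.21, adjusted p = 0.314) and the genotype difference without a pump -0.42. With offsets for GC content and length, the WT step of saline against no pump was -0.02 (adjusted p = 0.952).

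Ace, on chromosome 11, encodes angiotensin-converting enzyme, found on endothelium and raised in fibroblasts of injured heart. Without a pump it was at 81.9, 89.9, 101 and 111 CPM in WT and at 93.4, 75.5 and 136 in MCT1KO. With saline it ran from 56.3 to 121 CPM in WT (median 77.2) and was at 62.1, 62.8, 66.2 and 126 in MCT1KO. With Ang/PE it was at 72.1, 70.6 and 105 CPM in WT and at 87.6, 156, 78.7, 77.5 and 179.9 in MCT1KO. Every pair of groups overlapped, and the 2 highest hearts of the series were MCT1KO Ang/PE replicates 2 and 5. The log2 fold change of Ang/PE against saline was 0.55 (SE 0.286, adjusted p = 0.288, edgeR) in MCT1KO, and the 95% interval in WT was -0.63 to 0.62. The difference between the genotypes in this step was 0.56 (SE 0.416, adjusted p = 0.564), and 0.07 with the Xist covariate. Without MCT1KO saline replicate 4 the MCT1KO value was 0.86 (SE 0.291, adjusted p = 0.193), and without MCT1KO Ang/PE replicate 5 it was 0.34.

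Mme, on chromosome 3, encodes neprilysin, the membrane peptidase that cuts angiotensin I to the ligand of Mas and also degrades natriuretic peptides. It varied more than any other member, 35.5-fold between the lowest and highest heart, with a within-group SD of 0.761 on the log2 scale against a median of 0.256 over tested genes. Without a pump it was at 15.03, 15.7, 16.6 and 17.5 CPM in WT and at 16.7, 18.1 and 16.4 in MCT1KO. With saline it ran from 7.64 to 13.5 CPM in WT (median 11.7) and was at 7.77, 7.66, 11.6 and 47.1 in MCT1KO. With Ang/PE it was at 9.48, 7.69 and 8.93 CPM in WT and at 8.50, 1.33, 8.92, 10.7 and 3.54 in MCT1KO. The 7 hearts without a pump were thus tightly grouped and above all 8 Ang/PE hearts and all saline hearts except MCT1KO replicate 4. How many of the tested genes separate in this way with the genotypes pooled was not computed.

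Against no pump, the log2 fold change of Mme with Ang/PE was -1.39 in MCT1KO (SE 0.509, 95% interval -2.45 to -0.33, adjusted p = 0.229, edgeR) and -0.90 in WT (-2.03 to 0.24, adjusted p = 0.651). Groups separated downward in 3.96% and 7.07% of tested genes in these comparisons. With saline against no pump the WT value was -0.55 (adjusted p = 0.476), again with no overlap, and 6.22% of tested genes separated in that direction. MCT1KO saline replicate 4 widened the spread that all groups share. Without it, Ang/PE against no pump in MCT1KO gave -1.39 (SE 0.342, adjusted p = 0.048) and passed, in a fit that called 1.29% of its genes, and WT gave -0.89 (adjusted p = 0.386). A fit of only the WT saline and no-pump hearts also called Mme, with an adjusted p of 0.0122, together with 13.8% of its genes; with atrial and fat marker scores as covariates that WT value was -0.16 (adjusted p = 0.955).

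Against saline in MCT1KO, Mme was lower with Ang/PE by -1.51 on the log2 scale (SE 0.48, 95% interval -2.51 to -0.51, adjusted p = 0.0758, edgeR), and DESeq2, which called 6.92% of tested genes here, gave an adjusted p of 0.0398. That value rested on MCT1KO saline replicate 4: without it the log2 fold change was -0.47 (SE 0.358, adjusted p = 0.613). Leaving out MCT1KO saline replicate 1, 2 or 3 instead left a call of Mme in each case, with 3.99%, 4.18% and 8.72% of genes called. With atrial and fat marker scores as covariates it was -0.31 (adjusted p = 0.931), while Ang/PE against no pump in MCT1KO was -1.54 (adjusted p = 0.0902). With the Xist covariate that second value was -0.76 (adjusted p = 0.728).

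**Figure D3:**
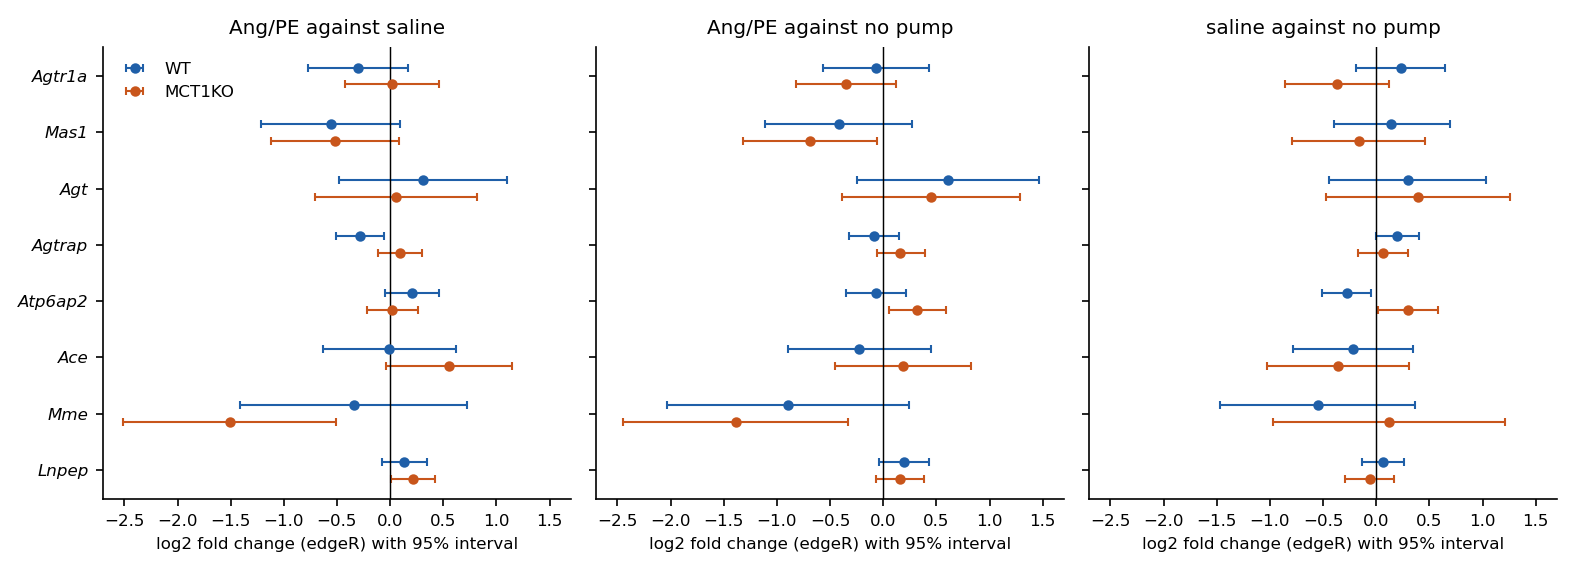
Log2 fold change of each tested member with its 95% interval, from edgeR's 6-group model, for 3 treatment comparisons in WT (blue) and MCT1KO (orange); the vertical line is no difference. The widest interval in each of these comparisons is that of Mme, followed by Agt, and the interval of Mme lies wholly below 0 in MCT1KO both against saline (-2.51 to -0.51) and against no pump (-2.45 to -0.33), before adjustment for the number of genes.

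Marker levels moved with several members from heart to heart inside the groups. Across the 25 hearts, as deviations from group means, Agtr1a rose with the ventricular cardiomyocyte marker score (r = 0.843, p = 9e-05, adjusted p = 0.00432; rho = 0.759, p = 0.00052, adjusted p = 0.0112; permutation test within groups). Without the 2 hearts farthest from the median r was 0.743. Agtr1a fell with the fibroblast score (r = -0.721, adjusted p = 0.00432; rho = -0.732, adjusted p = 0.0054; permutation), and r was -0.694 without 2 hearts. Ace ran the other way, rising with the fibroblast score (r = 0.728, p = 0.00047, adjusted p = 0.0102; rho = 0.677, adjusted p = 0.0287; permutation; r = 0.711 without 2 hearts), while with the endothelial score its r was -0.066 (p = 0.786, permutation).

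Atp6ap2 fell with the ventricular cardiomyocyte score (r = -0.481, adjusted p = 0.00432; rho = -0.733, adjusted p = 0.0054; permutation; -0.51 without 2 hearts) and rose with the leukocyte score (r = 0.652, adjusted p = 0.00945; rho = 0.751, adjusted p = 0.0112; 0.598 without 2). Among the 28 pairs of members, Atp6ap2 with Agtr1a passed on both measures (r = -0.52, adjusted p = 0.013; rho = -0.661, adjusted p = 0.0112; permutation; -0.489 without 2 hearts). Mme with the fat score did not (r = 0.322, p = 0.44, permutation). In all 108 relations were computed and adjusted together, and these 6 passed on both measures. Points in such a relation share a library, so what part of it lies in the cell makeup of a sample was not tested.

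**Figure D4:**
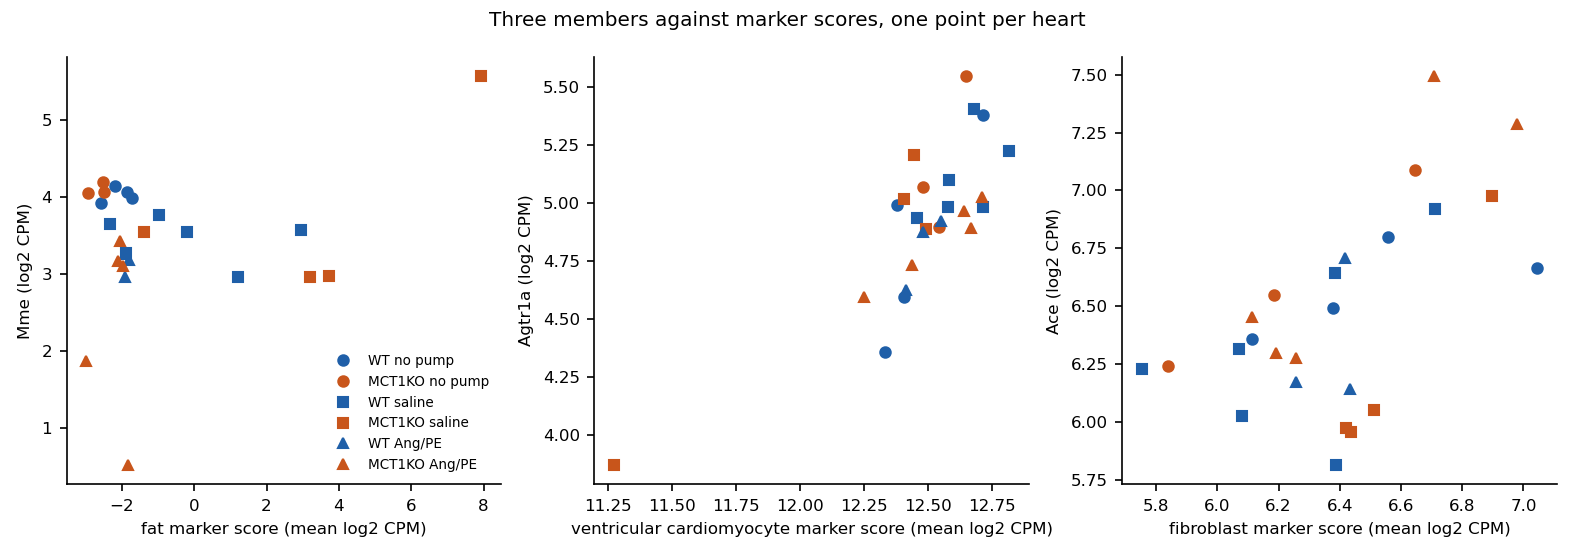
Log2 CPM of Mme, Agtr1a and Ace against the marker score shown on each x axis (mean log2 CPM of the marker genes), 1 point per heart, with WT in blue and MCT1KO in orange and circles, squares and triangles for no pump, saline and Ang/PE. MCT1KO saline replicate 4 is the far point in the first 2 panels, with a fat score of 7.94 and 47.1 CPM of Mme; the third panel shows Ace rising with the fibroblast score.

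Of 24 other genes of the pathway, 17 passed the filter. Ren1, renin itself, had 20 counts in 6 hearts, all 6 of them saline hearts with raised atrial markers, and 0 counts in the 15 hearts without saline. Its highest level was 0.564 CPM, in WT saline replicate 4. Enpep, the aminopeptidase that trims angiotensin II, was steady at 13.5 to 28.8 CPM (median 20.7).

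For Ang/PE against saline in MCT1KO, where 4.46% of tested genes were called, 0 of the 17 were called higher and 2 lower by edgeR. The 2 were Mcpt4, a mast cell chymase (-1.74, SE 0.383, adjusted p = 0.0147), and Anpep, an aminopeptidase (-0.55, SE 0.155, adjusted p = 0.0447). The list's median was -0.20 against -0.01 over all tested genes. Both calls ended without MCT1KO saline replicate 4, at -1.36 (adjusted p = 0.103) for Mcpt4 and -0.41 (adjusted p = 0.236) for Anpep, and that heart had the highest sum of mast cell markers, at 24.2 CPM. In the other 10 contrasts none of the 17 was called by edgeR. The unadjusted p was below 0.05 for 8 of the 17 in the interaction with saline, with 17.2% of tested genes. In the interaction with Ang/PE it was so for 7, with 13.5%. MCT1KO against WT gave 7 with saline, 2 without a pump (12.2%) and 1 with Ang/PE (6.92%). Saline against no pump gave 6 in WT (24.3%) and 5 in MCT1KO (12.1%). Ang/PE against saline in WT gave 2 (19.1%). Ang/PE against no pump gave 3 in MCT1KO (13.1%) and 1 in WT (9.02%). For any difference among the groups, which 8.34% of tested genes passed, Mcpt4 (adjusted p = 0.0227) and Nr3c2, the mineralocorticoid receptor (adjusted p = 0.0267), were called by edgeR. Without MCT1KO saline replicate 4 the adjusted p was 0.0612 for Mcpt4 and 0.0281 for Nr3c2, and with the Xist covariate that of Nr3c2 was 0.093. Nr3c2 averaged 40.2 ± 3.73 CPM (SD, n = 4) in WT and 57.3 ± 9.88 (n = 3) in MCT1KO hearts without a pump, 52.8 ± 7.07 (n = 6) and 49.9 ± 8.37 (n = 4) with saline, and 42.0 ± 7.12 (n = 3) and 37.9 ± 4.75 (n = 5) with Ang/PE.

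A list of 10 genes described as responding to the angiotensin receptor in heart was read beside the members. All 10 passed the filter. For Ang/PE against saline in MCT1KO, where 4.46% of tested genes were called, 4 rose and 0 fell by edgeR, with a list median of 1.47 on the log2 scale. They were Myh7, the slow myosin heavy chain (2.37, SE 0.587, adjusted p = 0.0268), Postn, a matrix protein of activated fibroblasts (2.02, SE 0.573, adjusted p = 0.0498), Rcan1, a calcineurin target and regulator (2.00, SE 0.417, adjusted p = 0.0141), and Edn1, the precursor of endothelin (1.02, SE 0.276, adjusted p = 0.0352). Without MCT1KO saline replicate 4 the adjusted p of these 4 ran from 0.0887 to 0.148 and their log2 fold changes were 2.12, 2.33, 1.83 and 1.11. Among MCT1KO Ang/PE hearts, Myh7 was at 3865 and 4667 CPM in replicates 2 and 5 and at 639 to 1435 in the others. Postn was at 548 and 492 CPM in the same hearts and at 74.0 to 159 in the others. Edn1 was at 16.9 CPM in replicate 2 and at 4.62 to 8.15 in the others. Rcan1 was at 162 to 379.5 CPM over the whole group and at 37.8 to 68.3 in MCT1KO saline hearts. In WT the list median was 1.22. There 5 of 10 were higher at an unadjusted p below 0.05, which 19.1% of tested genes passed in either direction. By edgeR 0 of the 10 were called, with 0.0170% of tested genes called.

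The genes whose levels tracked each member most closely over the 25 hearts were taken from 11636 candidates by Pearson's r of log2 CPM, as a description. For Agtr1a they were Lclat1 (r = 0.932, rho = 0.791), Tnni3k (0.924, 0.874), a kinase gene of heart muscle, and Tmem63b (0.9, 0.737). For Ace they were Crispld2 (r = 0.844, rho = 0.77), Nalcn (0.826, 0.784) and Itgbl1 (0.824, 0.708). For Mme they were Enpp2 (r = 0.864, rho = 0.737), Col6a6 (0.859, 0.713) and Dpyd (0.842, 0.848), and without the 2 hearts farthest from the median of Mme the r of these 3 was 0.758, 0.712 and 0.578. Agtrap was closest to Mgat1 (r = 0.887, rho = 0.899), Atp6ap2 to Dsel (0.834, 0.856), Lnpep to Trip11 (0.861, 0.83), Agt to Fry (0.809, 0.723) and Mas1 to Fig4 (0.786, 0.672). These r include differences between the groups as well as within them.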

How the data were processed

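The authors deposited 1 table of raw read counts per gene for 25 hearts; per the labels' protocols, total RNA was depleted of ribosomal RNA and made into directional libraries. The submitters' processing notes name cutadapt 1.16, STAR 2.7.9a, featureCounts 1.6.3, DESeq2 1.42.1 and the build GRCm39; the annotation release and the strand setting are not given in the sources used here, so reads of overlapping or antisense genes could have been counted for a neighbour. Columns were matched to samples by title (0 unmatched). Names, exon lengths and GC content came from GENCODE M21 (GRCm38), and promoter windows from RefSeq (GRCm38.p6).

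Counts were tested in edgeR 4.0.16 (R 4.3.3): filterByExpr by group (17682 of 56941 genes kept), TMM, glmQLFit (robust) with 6 groups and glmQLFTest, two-sided, 19 residual degrees of freedom, biological coefficient of variation 0.196. P-values were adjusted by Benjamini-Hochberg over all tested genes in each comparison. Levels are CPM on TMM-scaled library sizes; log2 CPM used a prior count of 2. Marker scores are mean log2 CPM of 3 to 6 genes. Relations used 100000 permutations within groups (scipy 1.17.1). The rule for naming prints a member's fold change at an unadjusted p below 0.05 (12 values); a further 12 values above 0.05 were chosen after they were seen. A further gene of the pathway list is not reported here by name. The likeness rule took the 3 genes of highest r among named genes with a mean log2 CPM above 1. Members, lists, markers and tests were chosen with earlier results of these data known. In simulated data for Ang/PE against saline in MCT1KO (17445 genes), 50 genes were changed at each of 4 sizes. Recovery was 24% at 1.5-fold, 70% at 2-fold, 92% at 3-fold and 82% at 4-fold, with 3 false among 137 calls. Over 43 pairs of hearts within groups, the chi-square per degree of freedom was at least 3.33, so no library was counted as a copy of another. The alternatives tried were RLE size factors, DESeq2 1.42.0, no low-count filter, a fit of only the groups compared, a replicate block, a non-robust fit, removal of mitochondrial genes, covariates for Xist or for atrial and fat scores, GC and length offsets (mgcv 1.9.3) and leaving out each heart. Thinning to the smallest library and leaving out the 8 saline hearts of raised atrial score were added after seeing the data.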

Additional observations from a re-analysis of the deposited data

Results flagged for a closer look

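Of 32 sets made of a member and a group of at least 4 hearts, 4 held a heart whose gap to the nearest other heart was large for the range of its group. Chance gives about 1.6 such sets. Ace stood high in MCT1KO saline replicate 4, at a log2 CPM of 6.98, with the other 3 hearts at 5.96 to 6.05. That heart also had the highest atrial and fat marker scores, and their part in the value was not tested. Agtrap stood low in WT saline replicate 6, at 5.34, with the others at 5.48 to 5.55. Atp6ap2 stood low in WT saline replicate 2, at 3.66, with the others at 3.95 to 4.12. Mas1 stood low in MCT1KO Ang/PE replicate 5, at -0.90, with the others at -0.13 to 0.17.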

How the results depend on the processing

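The number of members called was 0 in all but 3 of 155 recomputed values from 13 alternative settings and in all but 5 of 300 that left out 1 heart. A fit of only the groups compared called 1 member for Ang/PE against saline in WT (Agtrap; 5.69% of all genes in that fit) and 1 for saline against no pump in WT (Mme; 13.8%). DESeq2 called 1 (Mme; 6.92% of genes) for Ang/PE against saline in MCT1KO. Leaving out 1 heart gave 0 to 1 members for Ang/PE against saline in MCT1KO (1 without saline replicate 1, 2 or 3; 3.99% to 8.72% of genes), for Ang/PE against no pump in MCT1KO and for any difference among the groups (1 without MCT1KO saline replicate 4 in both; 1.29% and 7.69% of genes); the other comparisons stayed at 0. Of the 24 log2 fold changes given with alternatives, 3 changed sign in 4 settings: Lnpep for Ang/PE against saline in WT with GC and length offsets (-0.004, and -0.065 with the replicate block as well), Agtrap for the same step in MCT1KO without MCT1KO saline replicate 4 (-0.001; up to 0.182 without MCT1KO saline replicate 2), and Agt for Ang/PE against no pump in WT without WT Ang/PE replicate 3 (-0.009; up to 0.931 without WT no-pump replicate 2). The call of Nr3c2 for any difference among the groups had an adjusted p of 0.0509 with the replicate block. The labels do not say whether replicate numbers pair the hearts. Over 52 same-numbered pairs the mean correlation of deviations was 0.009 (-0.232 to 0.405), and for MCT1KO against WT with saline the mean was 0.101. Pairs with different numbers were not set beside these, so the values do not settle whether hearts were paired. With a replicate block 0 members were called in every comparison. Leaving out the 8 saline hearts of raised atrial score leaves 1 heart in each saline group, which is then assumed to vary like the other groups; Mme for Ang/PE against saline in MCT1KO was -0.84 there, and the 0 members called say little. Counts of 5 to 32 for Mas1 and 18 to 78 for Agt limit what can be seen of those genes.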

Other observations

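Inside the MCT1KO Ang/PE group, replicates 2 and 5 differed from the other 3 hearts in several members at once, a pattern picked out after the values were seen and not tested. They had the lowest Mme (1.33 and 3.54 CPM, the others 8.50 to 10.7), the lowest Agt (1.26 and 1.80, the others 2.87 to 5.67), the lowest Agtr1a (26.5 and 24.01, the others 29.5 to 32.5), the highest Ace (156 and 179.9, the others 77.5 to 87.6) and the highest Atp6ap2 (21.8 and 20.2, the others 14.5 to 16.7). The remaining tested members did not set them apart: Agtrap was at 48.5 and 38.9 CPM (the others 39.8 to 47.4), Lnpep at 372 and 488 (391 to 519) and Mas1 at 0.908 and 0.420 (0.796 to 1.006). Xist was at 572 CPM in replicate 2 and 0.300 in replicate 5. The share of all genes that part these hearts from the others was not computed. The same hearts had the highest mean log2 CPM of the 10 genes described as responding to the receptor, 8.71 and 7.96 against 7.03 to 7.63. Their fibroblast markers summed to 1385 and 1214 CPM against 707 to 795 in the others, and their ventricular cardiomyocyte markers to 38270 and 35290 CPM against 48340 to 49520. In WT, Ang/PE replicate 3 had a response level of 7.99 against 6.32 and 6.42 in its group, with Agt at 5.36 CPM and Mme at 8.93.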
